A study of Mus musculus with 6 samples.

Results

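Glycolysis and the response to low oxygen were followed through a set of 37 mouse genes during the activation of CD4+ T cells. The set holds glucose transporters, the enzymes from glucose to lactate, regulators of the flux, the HIF-1 alpha subunit with the oxygen-sensing prolyl hydroxylases, and known HIF targets. The set is a list of gene names, with no threshold on a measured value in its rule. Of the 37 genes, 35 were found in the table, among 28902 genes in all. Hk2 and Ldhb were not analysed here. A gene was represented by its brightest probe and counted as detected where that probe had a detection p below 0.01. By this rule 31 members were seen in 1 library or more, and 25 of them in every library. Slc16a1, Bnip3, Ero1l (now Ero1a) and Higd1a were not detected in any library, with normalized log2 signals of 4.18 to 4.46.

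RNA came from CD4+ T cells of mice of the strain given as RAG1- BW TRP-1 TCR, aged 6 weeks. These mice lack the RAG1 recombinase, and their T cells carry a transgenic receptor for a peptide of TRP-1, a melanocyte protein. Both features are shared by every sample. The day 0 sample held naive cells. The remaining samples, named Th17 cells in the labels, had received TRP-1 peptide and were taken on days 2, 4, 7, 12 and 18. Polarising cytokines, oxygen level, a cell sort and pooling of animals are not stated in the labels. The comparisons ask how expression of the glycolytic and hypoxia genes changed from the naive state over the days after antigen.

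Each time point was 1 library on 1 Illumina bead array, so no difference has a replicate check, standard deviation or p-value. A gene is called "higher" or "lower" where its signals differ 2-fold or more and the brighter library detected it. "At least" marks a lower bound, taken against the dimmest detected probe of a library that did not detect the gene. As a measure of probe error only, the fold change of paired probes of 1 gene disagreed with an SD of 0.435 log2 units for day 2 against day 0, and of 0.397 for day 18, over 2398 genes. The number of arrays limits the precision, and probe signals do not compare levels between genes.

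Glycolysis turns glucose into pyruvate in the cytosol, and lactate dehydrogenase regenerates the NAD+ that the pathway needs. T cells are known to raise glucose uptake and lactate release after antigen receptor signalling, even with oxygen present. HIF-1 is a transcription factor of an oxygen-regulated alpha subunit and a stable partner. With oxygen present, the EGLN prolyl hydroxylases mark HIF-1 alpha for destruction, and without it HIF-1 binds short DNA elements at many genes of glycolysis, angiogenesis and collagen modification. In Th17 cells HIF-1 alpha is also known for a role in differentiation. Its activity is set largely at the protein level, which an array does not measure.

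The DNA element that HIF-1 binds has the core ACGTG or GCGTG. Both cores were searched on both strands of the 250 bases upstream of each RefSeq gene start (GRCm38.p6). Windows were found for 35 of the 37 members, 51 windows in all, and for Slc2a3 and Ndrg1 none was used. ACGTG stood in 26 of the 51 member windows (51.0%), against 16.6% of all 32851 windows and 21.6% of the windows of genes detected here. GCGTG stood in 54.9% of member windows, against 28.2% and 43.9%. Either core stood in 80.4% of member windows, against 38.6% and 55.0%. The cores overlap with other motifs: CACGTG, which other factors bind as an E-box, holds ACGTG on both strands and stood in 11.8% of member windows against 6.02% of all and 8.12% of those of detected genes. Over the windows of detected members its share was 8.89%. Many of these genes are in the set because they are known HIF targets, so the shares describe the set, and a match is not a bound site.

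Windows are shown for the 4 members with the widest range over the 6 libraries (Egln3, Aldoc, Hif1a and P4ha2, the last counted from an undetected day 0 signal, without which its range is at least 3.67 and below the 3.83 of Slc2a1) and for Pfkp and Pfkm, phosphofructokinase genes that moved apart. They lie at chr12:54203875-54204124 on the minus strand (Egln3), chr11:78322823-78323072 on the plus strand (Aldoc), chr12:73907617-73907866 on the plus strand (Hif1a), chr11:54100674-54100923 on the plus strand (P4ha2), chr13:6648772-6649021 on the minus strand (Pfkp) and chr15:98092339-98092588 on the plus strand (Pfkm). For Aldoc and Pfkm the first of 2 and of 4 windows is given. Each ends at the base before the gene start, reads 5′ to 3′ on the gene's strand, and has the HIF cores of either strand in capitals.
Egln3: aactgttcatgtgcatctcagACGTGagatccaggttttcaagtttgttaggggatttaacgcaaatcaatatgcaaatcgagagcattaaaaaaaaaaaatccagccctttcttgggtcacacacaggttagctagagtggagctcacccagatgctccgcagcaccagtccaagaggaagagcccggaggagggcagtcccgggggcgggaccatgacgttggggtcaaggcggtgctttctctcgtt
Aldoc: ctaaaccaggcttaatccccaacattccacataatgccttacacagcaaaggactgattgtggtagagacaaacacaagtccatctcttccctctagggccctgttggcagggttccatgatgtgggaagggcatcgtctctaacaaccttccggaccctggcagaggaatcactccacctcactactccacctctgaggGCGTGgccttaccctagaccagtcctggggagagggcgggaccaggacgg
Hif1a: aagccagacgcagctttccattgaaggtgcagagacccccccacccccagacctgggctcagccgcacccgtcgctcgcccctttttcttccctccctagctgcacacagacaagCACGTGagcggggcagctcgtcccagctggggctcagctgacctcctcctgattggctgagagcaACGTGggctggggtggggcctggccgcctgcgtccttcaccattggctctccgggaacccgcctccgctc
P4ha2: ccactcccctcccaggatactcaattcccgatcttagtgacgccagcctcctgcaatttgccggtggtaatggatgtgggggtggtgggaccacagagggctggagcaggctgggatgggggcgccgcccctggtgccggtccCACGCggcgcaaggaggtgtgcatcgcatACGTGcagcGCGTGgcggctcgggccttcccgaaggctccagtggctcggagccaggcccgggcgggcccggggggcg
Pfkp: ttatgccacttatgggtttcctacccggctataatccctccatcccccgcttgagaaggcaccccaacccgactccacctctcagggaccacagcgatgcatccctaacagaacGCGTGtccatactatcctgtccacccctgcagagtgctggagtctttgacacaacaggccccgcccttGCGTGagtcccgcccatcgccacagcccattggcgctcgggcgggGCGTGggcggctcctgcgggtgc
Pfkm: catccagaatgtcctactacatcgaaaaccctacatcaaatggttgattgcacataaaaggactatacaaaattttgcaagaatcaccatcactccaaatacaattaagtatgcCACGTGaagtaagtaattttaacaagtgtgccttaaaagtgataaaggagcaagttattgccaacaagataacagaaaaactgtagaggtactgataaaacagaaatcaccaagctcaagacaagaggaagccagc
The cores did not separate Pfkp from Pfkm. Pfkp has 3 GCGTG cores in its window, and Pfkm has the palindrome CACGTG in the window shown and further cores of both kinds in its other windows.

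Detection was even over the arrays, with 13687 to 14258 of 45281 probes each. Of 14 T cell identity genes 13 were on the array, and all 13 were detected in every library, Thy1, Cd3d and Cd3g being the brightest. Their summed signal went from 16633 at day 0 to 21750 at day 2 and was 37584 to 51334 from day 4 on. Erythroid genes, led by Tfrc, Hbb-b1 and Hba-a1, summed to 66035 at day 0, 26931 at day 2 and 3657 or less later, with Hbb-b1 and Hba-a1 undetected at day 18. Tfrc, which dividing cells also express, went against its list, 2.36-fold higher at day 2, and made up 65.9% to 84.7% of the erythroid sum from day 4 on. Neutrophil genes, led by S100a8, Ctsg and S100a9, summed to 12194 at day 0, 32988 at day 2 and 11002 at day 4. Of the 12 detected, 8 were higher at day 2 than at day 0 and 3 lower (Mpo 6.43-fold, Prtn3 2.76-fold and Ctsg 2.68-fold). Mpo made up 57.3% of the day 0 sum and S100a8 52.8% of the day 2 sum. At day 18 only Ctsg of that list was detected. Macrophage and monocyte genes, led by Lyz2, Cd68 and C1qb, summed to 8881 at day 0 and 6069 at day 2. Their sums at days 12 and 18 were 324 and 329. The day 2 sum rests largely on Lyz2, which made up 60.1% of it after a 5.52-fold rise. By day 2, 7 of the 13 detected genes had dropped 2-fold or more, Vcam1 the most (26.7-fold), while 3 had risen, Lyz2 among them. Of the other lists, B cell genes (Cd79b, Ebf1, Blnk) and dendritic cell genes (Ccr7, Zbtb46, Clec9a) summed to at most 429. Mast cell and basophil genes (Cpa3, Kit, Gata2) summed to 1057 to 5083, and natural killer and CD8 T cell genes (Klrd1, Cd8b1, Klrk1) to 1398 to 4438, with Cd8b1 at 9.89 to 10.29 on the log2 scale and Cd8a (4.41 at most) and Ncr1 (4.27 at most) not detected in any library. In RNA of a whole sample, fewer cells of a type and less RNA per cell cannot be told apart. Apart from the results with T cell scaling given below, the part of these other cells in the results was not tested.

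At day 2, 23 of the 31 detected members were higher than in naive cells and 1 was lower (74.2% and 3.23%). Of all 11954 detected genes, 7.47% were higher and 8.97% lower. The members' median log2 difference was 2.25, against -0.01 for all detected genes. Of the 25 members detected in all 6 libraries 20 were higher and 1 lower, against 7.62% and 7.95% of the genes so detected. The number higher was 20 to 23 under the 8 other settings tried, 22 with arrays scaled on T cell identity genes. The heat map of members by day shows that the low signals of the set are gathered in the day 0 column.

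**Figure D1:**
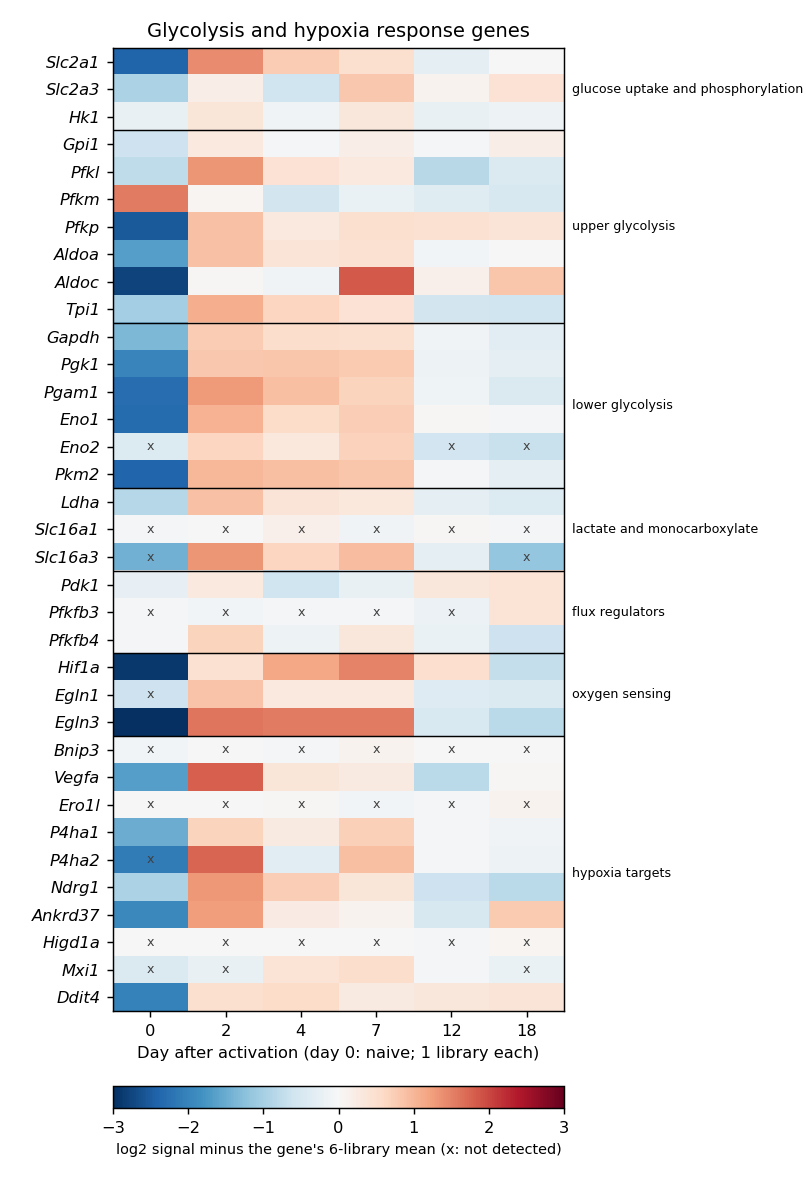
Normalized log2 signal of each of the 35 measured members (vertical axis, grouped by role) on each day (horizontal axis, 1 library each), as the difference from that gene's mean over the 6 libraries. Red is above and blue below the mean, and an x marks a library that did not detect the gene. Day 0 is the lowest column for 25 of the 31 detected members, and Pfkm is the member with its highest signal there.

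The RNA signals of the glucose transporter genes changed by different amounts. Slc2a1, which encodes GLUT1, the main glucose transporter of activated T cells, had a log2 signal of 8.10 in naive cells and 11.92, 11.27, 10.99, 10.23 and 10.52 on the 5 activated days in order. All 5 activated libraries lay above the naive one, by 14.2-fold at day 2 and 4.39-fold at the least, at day 12. Slc2a3, the high-affinity transporter GLUT3, was at 9.14, 10.29, 9.49, 10.89, 10.18 and 10.51 on the same days. It was 2.22-fold higher at day 2 and peaked at day 7, 3.36-fold above day 0. The log2 difference from day 0 was larger for Slc2a1 than for Slc2a3 by 2.68 at day 2 and by 1.05 at day 18. Hk1, a hexokinase that traps glucose as its phosphate, stayed between 6.43 and 7.01 and was neither higher nor lower on any day.

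In the upper part of glycolysis, 5 of 7 members were higher at day 2 and 1 was lower. The phosphofructokinase genes, whose product makes the committed step of glycolysis, went apart. Pfkp, the platelet form, was at 7.16 in naive cells and 10.55, 9.97, 10.14, 10.13 and 10.06 later. It was 10.5-fold higher at day 2 and still 7.48-fold higher at day 18. Pfkm, the muscle form, was at 10.07 at day 0 and at 8.57, 7.97, 8.33, 8.15 and 8.04 on the later days. It was the 1 member lower than day 0 on every activated day, by 2.83-fold at day 2 and 4.10-fold at day 18. Pfkl, the liver form, was at 9.51, 11.61, 10.71, 10.56, 9.44 and 9.84, so it was 4.29-fold higher at day 2 and back within 2-fold of day 0 at days 12 and 18. The log2 differences of Pfkp and Pfkm from day 0 lay 4.73 to 4.94 apart on all 5 days. These 5 values share the 1 day 0 library and are not separate observations of the gap. From day 2 to day 18 Pfkp and Pfkm changed alike, by -0.49 and -0.53. A second probe of each, detected in all 6 libraries, gave a log2 difference of 3.19 for Pfkp and -1.63 for Pfkm at day 2. Another Pfkm probe was dim, at 5.15 at day 0 and undetected at day 2, and gave only a bound, a log2 difference of -0.25 or below.

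The aldolase genes, whose product splits fructose bisphosphate, also differed. Aldoa, the main form of most tissues, was at 10.34, 12.88, 12.39, 12.47, 11.92 and 12.02 from day 0 to day 18, 5.78-fold higher at day 2. Aldoc, best known from brain, was at 5.01, 7.83, 7.69, 9.63, 7.94 and 8.63. Its highest library was day 7, 24.5-fold above day 0 and 3.47-fold above day 2, and at day 18 it was 12.3-fold above day 0. Aldoc rests on 1 probe, since its other probe was not detected in any library. Tpi1, triose phosphate isomerase, was 4.28-fold higher at day 2 and within 2-fold of day 0 at days 12 and 18. Gpi1, glucose phosphate isomerase, was at 10.84 at day 0 and 11.40 to 11.76 later, never reaching 2-fold with the probe used. A second, dimmer probe, detected in all 6 libraries, was 1.04 log2 units higher at day 2, just past 2-fold.

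**Figure D2:**
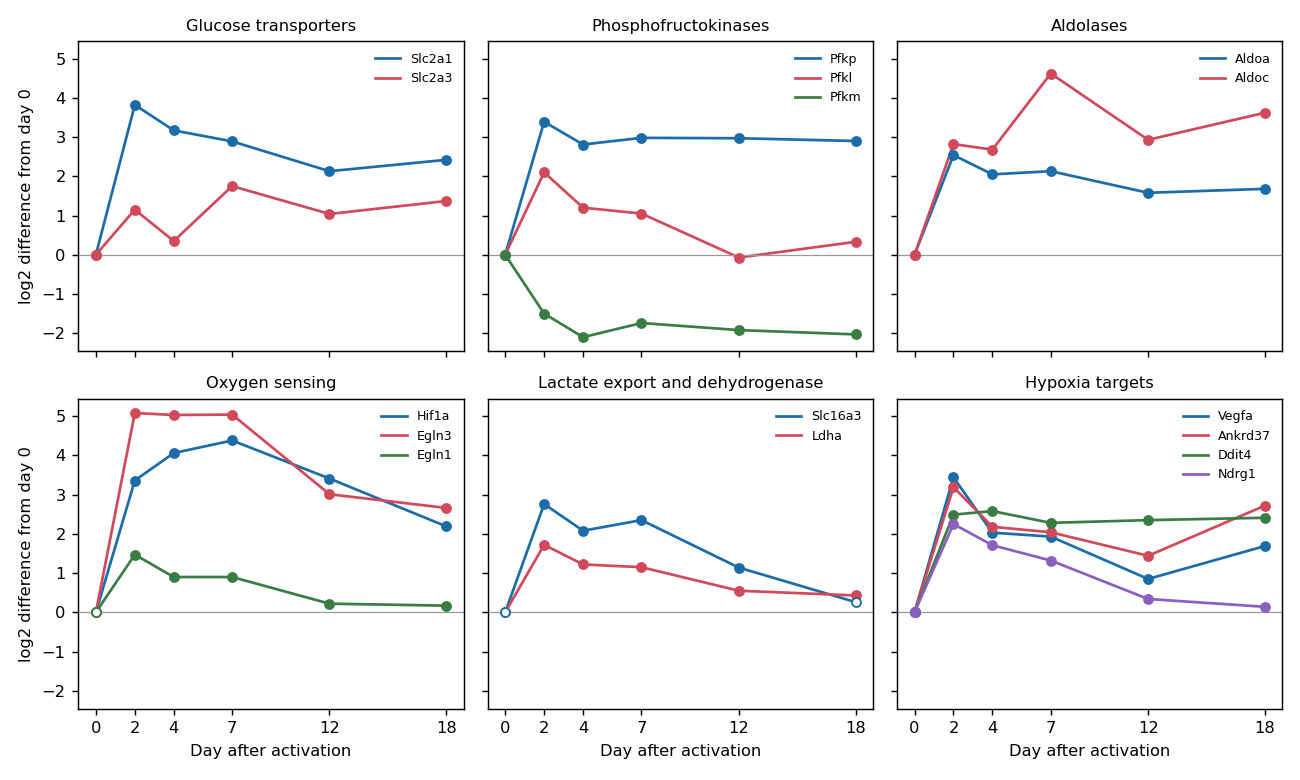
Normalized log2 signal minus the day 0 signal (vertical axis) against day (horizontal axis, 1 library per point) for related members in separate panels, with filled points detected and open points not detected. Pfkp lies above its naive level and Pfkm below it on every activated day, Aldoc peaks at day 7 at 4.62, and Egln3 stays between 5.03 and 5.09 from day 2 to day 7.

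The enzymes from glyceraldehyde phosphate to pyruvate moved together, with 5 of 6 higher on each activated day. Pgam1, phosphoglycerate mutase, was at 6.49 in naive cells and 10.04, 9.67, 9.45, 8.64 and 8.34 later. It was 11.6-fold higher at day 2 and 3.60-fold higher at day 18. Eno1, the general enolase, was at 9.77, 13.12, 12.63, 12.82, 12.11 and 12.03, 10.2-fold higher at day 2 and 4.78-fold at day 18. Pkm2, as the array lists the pyruvate kinase gene Pkm, was at 10.21, 13.57, 13.48, 13.40, 12.53 and 12.28. It was 10.2-fold higher at day 2 and 4.19-fold at day 18, and the probe does not tell the splice forms of the kinase apart as far as the table says. Pgk1, phosphoglycerate kinase, was 6.87-fold higher at day 2 and 3.23-fold at day 18. Gapdh, often used as a constant reference, was at 11.70 in naive cells and at 12.72 to 13.81 later, 4.29-fold higher at day 2 and 2.02-fold at day 18. The exception was Eno2, the neuronal enolase, which was detected only at days 2, 4 and 7, at 5.20 to 5.56, and was not called higher on any day.

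Of the genes for lactate, Ldha, the lactate dehydrogenase A chain, was at 12.45 in naive cells and 14.17, 13.67, 13.60, 13.00 and 12.88 later. It was 3.27-fold higher at day 2 and within 2-fold of day 0 at days 12 and 18. Its day 2 signal is close to the highest value on the arrays, 14.87. Slc16a3, which encodes the lactate exporter MCT4, was not detected at day 0 and was at 7.00, 6.32, 6.59 and 5.38 on days 2, 4, 7 and 12. It was at least 4.35-fold higher at day 2 and was not detected at day 18. At day 12 the bound was only 1.42-fold, which does not settle whether it was 2-fold higher there. Slc16a3 rests on 1 probe, since its other probes were detected in at most 1 library.

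The flux regulators showed no call against day 0. Pdk1, the kinase that holds back pyruvate entry into mitochondria and a known HIF target, was at 7.88 at day 0 and at 8.41, 7.52, 7.90, 8.46 and 8.53 later. Pfkfb3 and Pfkfb4 encode enzymes that make and break an activator of phosphofructokinase. Pfkfb3 was detected only at day 18, at 5.04, and Pfkfb4 ranged from 6.09 at day 18 to 7.38 at day 2.

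The 3 oxygen-sensing members were all higher at day 2. Hif1a, the alpha subunit itself, was at 5.06 in naive cells and 8.42, 9.12, 9.44, 8.47 and 7.25 later. It was 10.3-fold higher at day 2, 20.8-fold higher at day 7 and 4.57-fold higher at day 18. Egln3, the prolyl hydroxylase PHD3 and itself a HIF target, was at 5.35, 10.43, 10.38, 10.39, 8.36 and 8.01. Its 33.9-fold difference at day 2 was the largest of all members, and its signal stayed at 10.38 to 10.43 through day 7 and was 4.09-fold lower at day 12 than at day 7. Egln1, the hydroxylase PHD2, was not detected at day 0 and was at least 2.73-fold higher at day 2, with signals of 6.32, 5.75, 5.75, 5.07 and 5.02 from day 2 to day 18. Other probes of Hif1a and Egln3 were detected in at most 1 and 3 libraries, so both rest on 1 probe. No Egln1 probe was detected at day 0, and at day 2 the 3 probes lay at least 0.94, 1.40 and 1.45 log2 units higher.

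Of the 10 hypoxia targets, 6 were higher at day 2 among 7 detected. Vegfa, the angiogenic growth factor, was at 5.05, 8.49, 7.08, 6.98, 5.90 and 6.74 from day 0 to day 18, 10.9-fold higher at day 2. A second probe, not detected at day 0, was at least 2.05 log2 units higher at day 2, and the probe used was 3.44 higher. P4ha2, a collagen prolyl hydroxylase subunit, was not detected at day 0 and was at 8.55, 6.48, 7.70, 6.74 and 6.65 later, at least 12.8-fold higher at day 2. A second P4ha2 probe, also undetected at day 0, was at least 2.41 log2 units higher at day 2. At day 4 that second probe lay 0.80 above its undetected day 0 signal, short of 2-fold. The probe used was at least 1.60 higher there. P4ha1, the related subunit, was 4.46-fold higher at day 2 and highest at day 7, at 7.20. A second P4ha1 probe was not detected at day 0 and gives only a bound at day 2, at least 0.74 log2 units higher. Ankrd37, an ankyrin repeat protein known as a HIF target, was at 4.93, 8.12, 7.11, 6.97, 6.37 and 7.65. It was 9.18-fold higher at day 2 and 6.62-fold at day 18, the day 18 level being 2.43-fold above day 12. Ndrg1, a stress-induced protein whose probe is listed under NDRL, was at 7.31, 9.56, 9.02, 8.63, 7.65 and 7.45, 4.76-fold higher at day 2 and back near the naive level at day 18. Ddit4, an inhibitor of mTORC1 signalling, was at 7.97 in naive cells and 10.25 to 10.55 in every activated library, 5.63-fold higher at day 2 and 5.31-fold at day 18. Mxi1, a MYC antagonist, was detected at days 4, 7 and 12 only, at 4.94 to 5.53, with no call.

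After day 2 the set stayed above the naive level with fewer calls. At day 4, 21 members were higher and 1 lower (all genes 8.1% and 9.44%), with a median of 1.77. At day 7, 22 were higher and 1 lower (all genes 8.88% and 9.35%), with a median of 1.93. At day 12, 16 were higher and 1 lower (all genes 7.19% and 7.75%), with a median of 1.14. At day 18, 17 were higher and 1 lower (all genes 7.93% and 8.69%), with a median of 1.37. With undetected libraries at their floor, the medians were 2.25 at day 2 over the 29 members with a value and 1.52 at day 18 over 28. The 5 comparisons share the day 0 library. Scaling on T cell identity genes put the median of all genes at -0.45 at day 2 and at -1.15 to -1.58 later. It gave 10 members higher and 4 lower at days 4 and 7. At day 12 it gave 6 and 5, and at day 18 it gave 8 and 4. Of all 11954 detected genes, 232, 178, 140 and 185 were higher at days 4, 7, 12 and 18 under that scaling. Those lower were 7043, 8336, 7412 and 6732. The members' median was then 0.59, 0.37, 0.04 and 0.10 at days 4, 7, 12 and 18. Such scaling shifts every gene of an array by the same amount. The distance between the members' median and that of all genes is therefore no check on it.

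**Figure D3:**
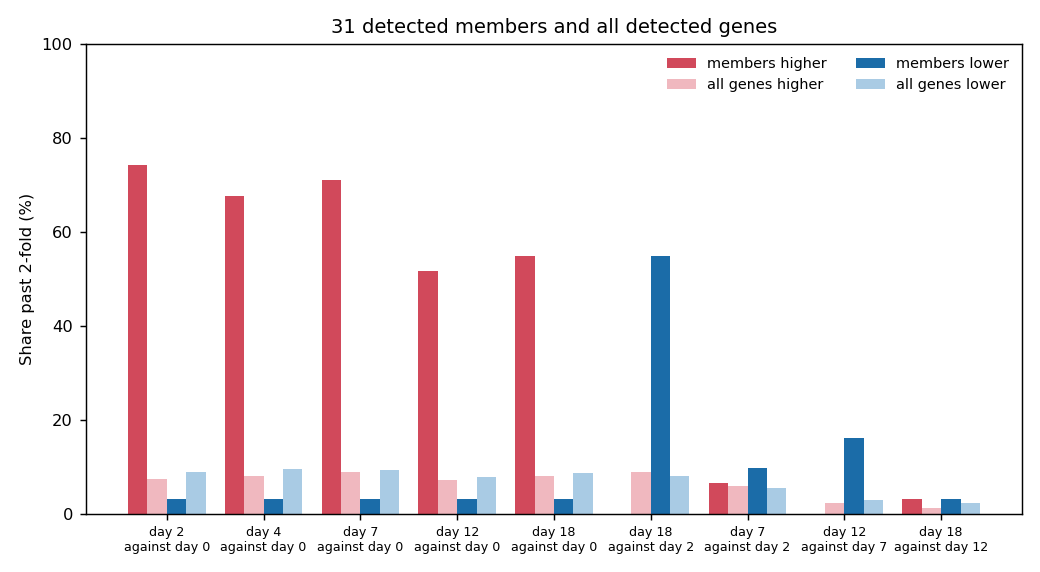
Share of the 31 detected members and of all 11954 detected genes (vertical axis, percent) that were 2-fold or more higher (red) or lower (blue) in each of 9 comparisons of days (horizontal axis, 1 library each), with all genes in the paler bars. Against day 0, the members' share higher goes from 74.2% at day 2 to 54.8% at day 18, against 7.19% to 8.88% of all genes, and the 1 tall bar of lower members is day 18 against day 2, at 54.8%.

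The highest library was day 2 for 20 of the 31 members (64.5%), against 18.2% of all detected genes. Day 7 was highest for 6 members (Slc2a3, Aldoc, Eno2, Hif1a, P4ha1 and Mxi1), against 14.3% of all genes, and day 4 for Pgk1 and Ddit4, against 11.9%. Pdk1 and Pfkfb3 were highest at day 18, against 21.3% of all genes. Day 0 was highest for Pfkm alone, against 24.3%, and day 12 for no member, against 9.99%. Several of these peaks are small next to probe error. Pgk1 was at 12.71 at day 2 and 12.74 at day 4, and P4ha1 was at 7.15 at day 2 and 7.20 at day 7. Neutrophil genes also had their highest sum at day 2, and their part in the day 2 values was not tested.

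Day 18 against day 2 compares late with early activated cells. No member was higher and 17 of 31 were lower, against 8.9% and 7.95% of all genes, with a median of -1.09 against 0.01. With arrays scaled on 9 reference genes 1 member was higher and 9 were lower, while the median of all genes moved to 0.44. Egln3 was 5.38-fold lower, Ndrg1 4.31-fold, Slc16a3 at least 4.08-fold, P4ha2 3.74-fold, Pfkl 3.42-fold, Vegfa 3.38-fold, Pgam1 3.23-fold and Tpi1 3.20-fold. All 3 oxygen-sensing members and 5 of 6 lower glycolysis members were among the 17. Members that kept their level included Ddit4, Slc2a3, Gpi1 and Pfkp, which differed by 0.49 log2 units or less. Aldoc was 0.80 higher at day 18, short of 2-fold.

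**Figure D4:**
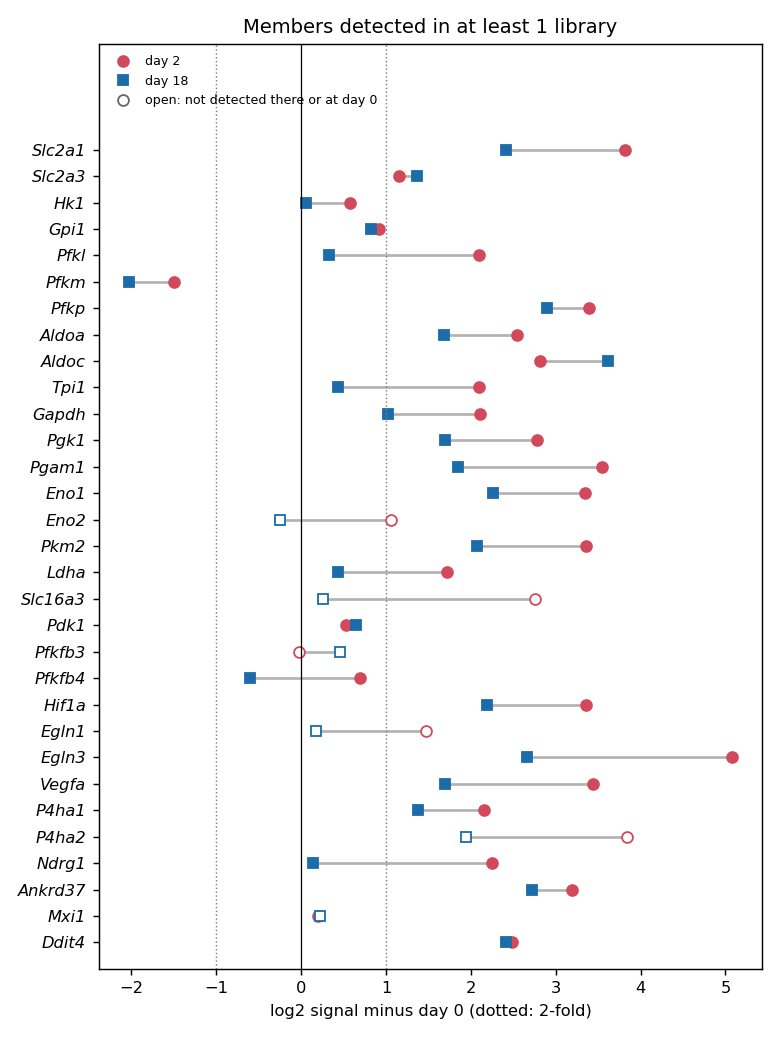
Log2 signal minus the day 0 signal (horizontal axis) for each of the 31 detected members (vertical axis) at day 2 (circles) and day 18 (squares), with open symbols where the gene was not detected on that day or at day 0 and dotted lines at 2-fold. For the 17 members lower at day 18 the square lies left of the circle. The squares of Aldoc, Pfkfb3, Slc2a3, Pdk1 and, barely, Mxi1 lie to the right of their circles. Both symbols of Pfkm lie on the negative side.

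The steps between were compared after the values had been seen. From day 2 to day 7, 2 members were higher (Aldoc 3.47-fold and Hif1a 2.03-fold) and 3 lower (Vegfa 2.85-fold, Ankrd37 2.23-fold and Pfkl 2.08-fold), against 5.81% and 5.54% of all genes. T cell identity scaling turned this step to 0 higher and 26 lower, with 98 higher and 6081 lower among all 11954 detected genes. The median of all genes was then -1.13. Without background correction 1 member was higher. From day 7 to day 12, 5 were lower and none was higher, against 2.9% and 2.28% of all genes. The 5 were Egln3 (4.09-fold), Aldoc (3.22-fold), Slc16a3 (2.31-fold), Pfkl (2.17-fold) and Vegfa (2.11-fold), a count that was 9 with median scaling and 3 without background correction. From day 12 to day 18 Ankrd37 was 2.43-fold higher and Hif1a 2.33-fold lower, against 1.31% and 2.27% of all genes. The Ankrd37 call was lost with median scaling and without background correction, and the Hif1a call without background correction and with the mean of detected probes. The members' median differences over the 3 steps were -0.30, -0.72 and -0.08.

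Genes of neighbouring pathways were counted by the same rule at day 2, where 7.47% of all detected genes were higher and 8.97% lower. With 5 to 18 detected genes a list, 1 call more or less moves a share by several percent, and nothing is read from the counts of 1 or 2. Among 9 detected of 26 other isozymes and glucose-handling genes, 2 were higher (Pgm2 and the glucose transporter gene Slc2a6, at 5.01-fold) and none lower. Pgm2, phosphoglucomutase, was at 9.25 at day 0 and 11.80 at day 2, 5.86-fold higher. Of 11 detected genes for pyruvate entry and monocarboxylate transport, 1 of the 13 listed was higher, the kinase gene Pdk3, at 2.21-fold. Among 10 detected pentose phosphate and side-branch genes 3 were higher (Phgdh, Gpd2 and Pgd) and 2 lower. The lower pair, Rpia and Rpe, encode enzymes that interconvert pentose phosphates and were 2.46-fold and 2.33-fold lower. Phgdh, the entry enzyme of serine synthesis, was 3.28-fold higher at day 18, and Taldo1, transaldolase, was 2.50-fold lower there.

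Of 5 detected genes among the 8 other oxygen-sensing genes, none was higher at day 2 and 1 was lower. That was Hif3a, an alpha subunit that can act as an inhibitor of the HIF response, at 6.58 at day 0 and undetected at day 2, at least 3.21-fold lower, and 2.96-fold lower at day 18. Among 18 detected of 25 other hypoxia-response genes, 6 were higher and 1 lower at day 2. Bhlhe40, a transcriptional repressor, was at 8.23 at day 0 and 11.29 at day 2, 8.37-fold higher, and 5.23-fold higher at day 18. Car12, a membrane carbonic anhydrase, and Plod2, a collagen lysyl hydroxylase, were not detected at day 0 and were at least 7.93-fold and 7.17-fold higher at day 2, and at least 7.11-fold and 5.07-fold at day 18. The lower one was Hmox1, haem oxygenase, at 9.50, 8.12, 6.13, 5.40, 5.21 and 5.25 from day 0 to day 18, 2.60-fold lower at day 2 and 19.0-fold at day 18. Hk3, a hexokinase of myeloid cells, was at 7.51 at day 0 and was at least 5.84-fold lower at day 18. The macrophage and erythroid lists were lower over the same days, and their part in the values of Hmox1 and Hk3 was not tested.

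**Figure D5:**
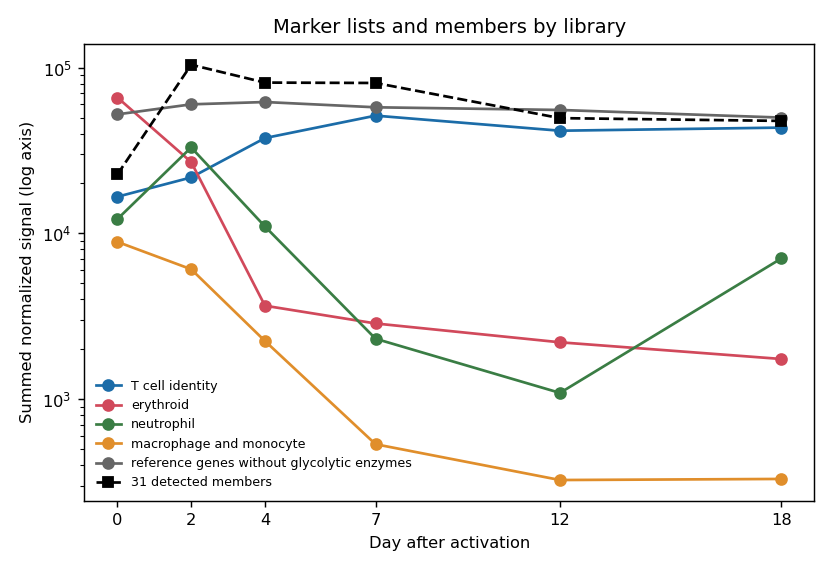
Summed normalized signal (vertical axis, log scale) of the members and of lists of cell type markers and reference genes, 1 line each, on each day (horizontal axis, 1 library each). The members' sum goes from 22681 at day 0 to 104140 at day 2 and 47712 at day 18, while the erythroid sum goes from 66035 to 1744 and the reference gene sum stays between 49965 and 62022. The neutrophil sum of 7049 at day 18 rests on Ctsg, at 12.73 on the log2 scale.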

How the data were processed

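Total RNA of 6 samples, 1 per time point, was labelled with biotin and hybridised to Illumina bead arrays, per the labels' protocols. The table has 45281 probes, although the labelling protocol in the labels is named for MouseRef-8 arrays. The authors deposited a signal intensity per probe and array, exported without normalization per the file headers, and beside it a deposited detection p-value. A deposited table of normalized intensity served only as an alternative. How the p-values and the normalized table were made is not stated in the labels or headers. All 18 value columns were used and 0 left out.

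Signals were normalized over the 6 arrays by limma 3.58.1 (R 4.3.3) and its neqc function (normexp background from the detection p-values, quantile normalization, offset 16, log2). Median raw signals were 87.2 to 93.4 and 30.2% to 31.5% of probes were detected per array. Names were matched to RefSeq symbols or synonyms of GRCm38.p6, with no use of coordinates. A symbol was found for 16223 of 30854 names and a single-gene synonym for 5683, and 8948 stayed as listed. Each gene was represented by the probe with the highest mean. A gene was called where the brighter library had a detection p below 0.01 and the difference was at least 2-fold. An undetected dimmer library entered at its array's floor, the dimmest detected probe, unless the gene's own signal was above that. With 1 library per time point no model or test was used. Further steps used Python 3.11.15, pandas 2.3.3, numpy 2.4.6 and matplotlib 3.10.9. The calling rule was also run on simulated libraries with changes beyond 2-fold put in. That run checks the code only, since its noise was set by hand and it held no difference in cell mix.

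Members, lists and settings were chosen with earlier results of these data known. Beyond the members, the text names the 4 called genes of the related lists with the largest difference each way at day 2 and day 18 against day 0, and the 3 brightest detected genes of each marker list. Pdk3, Slc2a6, Gpd2 and Pgd were named after their values were seen. Alternatives were median scaling, scaling on reference genes or T cell identity genes, no background correction, the normalized table of the authors, a looser detection p (below 0.05), members detected in all 6 libraries, and the mean of detected probes. The steps from day 2 to 7, 7 to 12 and 12 to 18 were added after the data were seen.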

Additional observations from a re-analysis of the deposited data

How the results depend on the processing

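Of 152 recomputed counts, 128 stayed within 1.5 times the reported value and 24 did not. The count of members higher at day 2 against day 0 was 20 to 23 under all 8 alternatives, and 16 to 25 members had their highest signal at day 2. Scaling on T cell identity genes gave 10, 10, 6 and 8 higher and 4, 4, 5 and 4 lower at days 4, 7, 12 and 18 against day 0. Of the 11954 detected genes it called 140 to 232 higher on those days and 6732 to 8336 lower. For day 7 against day 2 it gave 0 higher and 26 lower, with 98 and 6081 of the 11954 detected genes. For day 12 against day 7 it gave 2 lower, with 222 of those genes. It also turned Pfkl (-0.47), Ldha (-0.26) and Ndrg1 (-0.30) at day 7 against day 0, Slc2a3 at day 12 against day 0 (-0.24) and Hif1a at day 7 against day 2 (-0.044). Reference gene scaling gave 1 higher and 9 lower at day 18 against day 2, and 1 lower at day 7 against day 2. Median scaling gave 2 lower at day 18 against day 0, 9 lower at day 12 against day 7 and 0 higher at day 18 against day 12. Without background correction, day 18 against day 12 had 0 higher and 0 lower, day 7 against day 2 had 1 higher, and day 12 against day 7 had 3 lower. With the mean of detected probes, day 7 against day 2 had 1 higher, day 12 against day 7 had 3 lower and day 18 against day 12 had 0 lower. The cause of these changes was not tested. Counts of 5 or fewer move by over 1.5 times with 1 or 2 genes. Of 2178 recomputed differences of single members, 1749 moved by less than the probe disagreement. Another 424 moved by more without changing the sign of a called value, and 5 changed sign. Scaling on T cell identity genes held 217 of the 424 and all 5 sign changes. Under it only 57 differences moved by less than the probe disagreement. That number was 199 without background correction and 270 with the normalized table of the authors. The 1749 include 279 with the looser detection p and 225 for members detected in all 6 libraries. Both settings reuse the same signals, so these differences could not move.

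No paired analysis was possible because each time point has 1 library. Leaving out a replicate was not possible for the same reason. Members near the detection floors of 4.88 to 4.97 log2 units (Eno2, Pfkfb3, Mxi1, Egln1) have only bounds on some days, and the 4 undetected members give no information on change. Ldha and Tpi1 at day 2 lie near the top of the signal range.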
